A study of Mus musculus with 6 samples.

Results

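The EGR transcription factors and their NAB corepressors were followed in cultures that the study describes as C2C12 myotubes, treated with 25 μM kaempferol or kept as controls. The 5 genes are Egr1, Egr2, Egr3, Nab1 and Nab2. They were taken from the count table by gene name, and all 5 were among the 54924 genes listed and among the 14558 genes with enough counts to be tested. The names were chosen when the kaempferol vs. control difference of the EGR genes was already known, so this difference is described for all 5 genes with its error and without a p-value.

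C2C12 is a mouse myoblast line whose cells fuse into myotubes, muscle cells with many nuclei, in medium with little serum. Kaempferol is a plant flavonol. All 6 libraries, controls included, were taken as 6 days of differentiation followed by 24 h. The kaempferol group had 3 libraries from cells exposed to 25 μM kaempferol for these 24 h. The control group had 3 libraries from cells labelled as without kaempferol. The labels write the line of the treated libraries as C2C13, and the study describes only C2C12. A treatment label of all 6 libraries reads dedifferentiation, while their titles call the cells myotubes. No vehicle is named for the control cells, the treatment text is worded alike for both groups, and no source states that the replicates are independent cultures. The p-values given here therefore measure only the spread between these 6 libraries, which may be technical.

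Early growth response (EGR) proteins are zinc finger transcription factors that bind GC-rich DNA. Their genes are immediate-early genes: growth factors, stress or contraction switch them on within minutes through the kinase ERK, the factor SRF and its ETS partners, and the mRNA is soon lost again. EGR1 acts in many cell types, EGR2 drives myelination by Schwann cells, and EGR3 is needed for muscle spindles, the stretch sensors of skeletal muscle. NAB1 and NAB2 have no DNA-binding domain of their own. They bind a short inhibitory domain shared by EGR1, EGR2 and EGR3 and hold these factors back, in part through the NuRD chromatin complex, and Nab2 is itself an EGR target, which makes a feedback loop.

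The start regions are shown because SRF acts through a DNA element called the CArG box. The RefSeq promoter table (GRCm38.p6, the build called mm10) held 5 windows for Egr2, 1 for Nab1 and 1 for Nab2, and it was searched on both strands. Each window covers 250 bases before to 50 bases after an annotated start. The lines below give letters upstream of exons, 5′ to 3′ along the gene, for 2 Egr2 starts (chr10:67537619-67537868 and chr10:67537316-67537565, plus strand) and for an internal Nab2 start (chr10:127666711-127666953, minus strand), with CArG boxes, EGR sites (GCGNGGGCG) and half-sites of the cAMP response element (CGTCA, or TGACG on the other strand) in capitals.
Egr2 downstream start: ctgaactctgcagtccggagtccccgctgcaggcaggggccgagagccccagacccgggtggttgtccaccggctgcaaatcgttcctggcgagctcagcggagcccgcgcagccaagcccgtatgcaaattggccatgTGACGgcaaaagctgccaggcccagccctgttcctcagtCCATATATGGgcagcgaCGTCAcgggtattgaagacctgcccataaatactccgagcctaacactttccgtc
Egr2 middle start: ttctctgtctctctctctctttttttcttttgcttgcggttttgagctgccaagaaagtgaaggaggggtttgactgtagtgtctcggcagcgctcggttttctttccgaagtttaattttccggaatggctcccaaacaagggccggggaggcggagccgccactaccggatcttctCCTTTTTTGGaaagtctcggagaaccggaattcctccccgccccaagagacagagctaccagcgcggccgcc
Nab2 internal start: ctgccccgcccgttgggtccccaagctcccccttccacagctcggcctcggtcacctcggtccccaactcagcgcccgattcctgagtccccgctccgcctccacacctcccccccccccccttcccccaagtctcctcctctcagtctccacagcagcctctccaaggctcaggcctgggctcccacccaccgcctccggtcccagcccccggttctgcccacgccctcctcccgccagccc

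In the downstream Egr2 window 1 CArG box began 72 bases before the start, between 2 half-sites of the cAMP response element that began 111 and 55 bases before it. Windows of 2 further Egr2 starts overlap this one and hold the same box and half-sites. The middle Egr2 window also had 1 CArG box, 72 bases before its own start. The window of the most upstream Egr2 start, at 67535499 near the 5′ end of the gene, had no CArG box, half-site or EGR site and is not shown. CArG boxes occurred in 1.63% of all 32851 promoter windows, half-sites in 20.8% and EGR sites in 5.55%. The Nab2 window, whose start at 127666703 lies inside the annotated gene and not at its 5′ end, had none of these motifs, and the Nab1 window had 3 EGR sites and 1 half-site. Its letters are not shown because they lie in an annotated exon. A match is only a run of letters, and a window without one says nothing about binding elsewhere.

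Egr1, Egr2, Egr3 and Nab2 were lower in every kaempferol library than in every control library, and Nab1 was not separated. A gene was called when its adjusted p in the quasi-likelihood test of edgeR was under 0.05, and 4 of the 5 genes were called lower, 0 higher and 1 was not called. Over all tested genes 12.6% were called lower and 11.3% higher, 19.6% had kaempferol libraries that all lay below the controls and 18.6% the opposite. A log2 fold change of -1 or lower was fitted for 2 of the 5 genes and for 0.659% of all tested genes. The choice of the genes fixed part of these counts, so nothing is read from them. Values are counts relative to the TMM-scaled library total (CPM), given by library as replicates 1, 2 and 3.

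Egr1 (ENSMUSG00000038418, chromosome 18 of mm10 from 34859823 to 34864984, plus strand), the most widely used member of the family, had 44.1, 53.1 and 50.1 CPM in kaempferol libraries against 135, 141 and 134 CPM in control libraries. The highest kaempferol library was at 0.395 of the lowest control library, so the groups lay far apart. The means were 49.1 ± 4.56 CPM with kaempferol and 137 ± 3.46 CPM in controls (SD, n = 3 each), and the fitted log2 fold change was -1.48 with a standard error of 0.0598. Ordered from the most negative fold change, Egr1 was at place 27 of the 14558 tested genes.

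Egr3 (ENSMUSG00000033730, chromosome 14 from 70077203 to 70082614, plus strand), the spindle factor, had 8.45, 8.98 and 7.28 CPM with kaempferol against 19.99, 17.8 and 20.8 CPM in controls. The groups did not overlap. Its means were 8.24 ± 0.869 and 19.5 ± 1.60 CPM in kaempferol and control libraries (SD, n = 3 each), with a log2 fold change of -1.25 (standard error 0.110) and place 44 in the same order.

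Egr2 (ENSMUSG00000037868, chromosome 10 from 67535475 to 67542188, plus strand), the myelination factor, was the least abundant and had 4.94, 6.35 and 6.17 CPM with kaempferol against 11.0, 10.8 and 12.96 CPM in controls. The groups did not overlap here either. The means were 5.82 ± 0.766 CPM with kaempferol and 11.6 ± 1.20 CPM in controls (SD, n = 3 each), the log2 fold change was -0.99 with a standard error of 0.135, and the place was 99. This was the least precise of the EGR values, since it rested on 86 to 116 counts per kaempferol library and 190 to 215 per control library.

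Nab2 (ENSMUSG00000025402, chromosome 10 from 127660918 to 127668568, minus strand), the corepressor that EGR factors themselves induce, had 51.1, 49.9 and 46.6 CPM with kaempferol against 94.1, 91.0 and 98.5 CPM in controls. Every kaempferol library was at 0.473 to 0.562 of a control library, whichever pair was taken. The means were 49.2 ± 2.31 and 94.5 ± 3.80 CPM in kaempferol and control libraries (SD, n = 3 each), the log2 fold change was -0.94 (standard error 0.0565) and the place was 122.

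Nab1 (ENSMUSG00000002881, chromosome 1 from 52457294 to 52500679, minus strand), the paralog of Nab2 and also an EGR corepressor, had 72.3, 65.5 and 71.6 CPM with kaempferol against 78.6, 75.9 and 68.9 CPM in controls. The groups overlapped, with control replicate 3 below 2 of the kaempferol libraries. The means were 69.8 ± 3.74 CPM with kaempferol and 74.5 ± 5.03 CPM in controls (SD, n = 3 each), and the log2 fold change of -0.09 (standard error 0.0607) did not pass the threshold. Both corepressors were well counted, with at least 833 counts in each library.

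**Figure D1:**
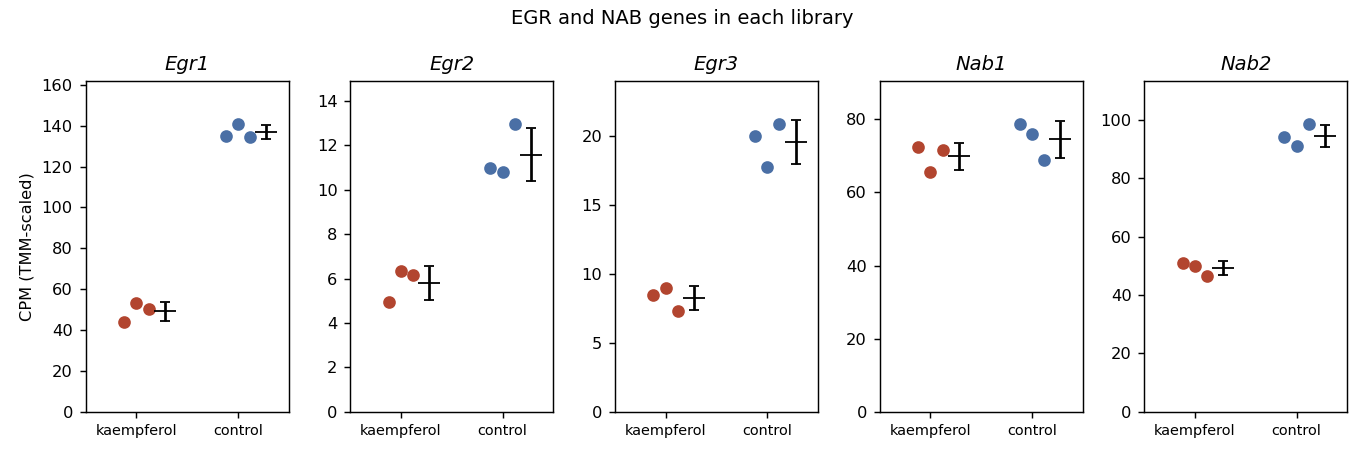
CPM (TMM-scaled, linear axis from 0) of each gene in each library, kaempferol left of control, with points for libraries in replicate order and bars for mean ± SD (n = 3). The kaempferol points of Egr1 lie between 44.1 and 53.1 CPM and its control points between 134 and 141 CPM, and only the Nab1 groups overlap.

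The mean level left with kaempferol was not equal for the 4 lower genes, though Egr2 and Nab2 were close. Egr1 was left at 35.9% of its control mean, Egr3 at 42.2%, Egr2 at 50.3% and Nab2 at 52.0%, against 93.8% for Nab1. The ratio of Egr1 to Egr2, in CPM per kilobase, was 6.77, 6.33 and 6.16 in kaempferol libraries against 9.33, 9.87 and 7.86 in control libraries. These did not overlap, so Egr1 lost more than Egr2 in every pairing of a kaempferol with a control library. The ratio of Egr1 to Egr3 was 5.13, 5.80 and 6.76 with kaempferol and 6.64, 7.79 and 6.33 in controls, where the groups overlapped, and the ratio of Egr2 to Egr3 overlapped as well. No test was run on these ratios because the genes were chosen on the same comparison.

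Replicates of a gene did not all deviate alike. Kaempferol replicate 1 was the lowest of its group for Egr1 and Egr2, with deviations from the group mean of -0.15 and -0.22 on the log2 CPM scale, but deviated by 0.04 for Egr3. Kaempferol replicate 2 was the highest of its group for all 3 EGR genes. The coefficient of variation of Egr1 was 9.28% with kaempferol, where counting alone gives 3.40%, and 2.53% in controls, where it gives 2.06%. For Egr2 it was 13.2% and 10.3% with kaempferol and in controls, where counting alone gives 9.87% and 7.08%.

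**Figure D2:**
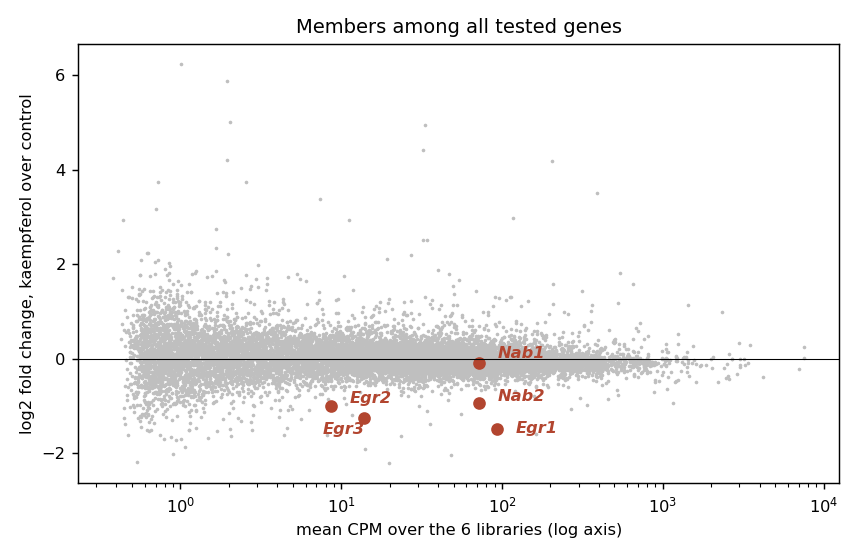
Fitted log2 fold change (kaempferol over control) against mean CPM over the 6 libraries (log axis), one grey point per tested gene and the named genes in red. Egr1, Egr2, Egr3 and Nab2 lie along the lower edge of the cloud at their level, and Nab1 lies inside it at -0.09.

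Levels were compared between genes per length, as CPM per kilobase of the gene length given in the table. The Nab2 length includes bases shared with genes on the opposite strand, as given below, so its level per kilobase is less certain. With kaempferol the order was Nab1 (17.0 ± 0.912), Nab2 (16.7 ± 0.785), Egr1 (11.0 ± 1.02), Egr3 (1.87 ± 0.197) and Egr2 (1.71 ± 0.225). In controls it was Nab2 (32.1 ± 1.29), Egr1 (30.5 ± 0.772), Nab1 (18.2 ± 1.23), Egr3 (4.43 ± 0.362) and Egr2 (3.41 ± 0.352; SD, n = 3 each). The neighbours whose library values overlapped were Nab1 and Nab2, and Egr3 and Egr2, in kaempferol libraries, and Nab2 and Egr1 in control libraries. With kaempferol Egr1 thus stood below both corepressors, and in controls Nab2 and Egr1 stood above Nab1.

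Egr1 supplied most EGR mRNA in both groups, with 74.5% to 76.3% of the summed Egr1, Egr2 and Egr3 level per kilobase in kaempferol libraries and 77.8% to 81.3% in control libraries. The summed EGR level was 13.2, 15.7 and 14.6 CPM per kilobase with kaempferol against 37.9, 38.6 and 38.5 in controls. The summed NAB level was 35.01, 32.9 and 33.3 CPM per kilobase with kaempferol against 51.2, 49.4 and 50.3 in controls. The EGR sum was therefore a smaller multiple of the NAB sum with kaempferol, 0.432 ± 0.0507 against 0.762 ± 0.0202 in controls (SD, n = 3 each). Nab2 per Nab1 was 0.984, 1.06 and 0.908 with kaempferol, about even, against 1.67, 1.67 and 1.99 in controls. These are mRNA ratios, those with Nab2 carry the limit of its length given above, and the proteins were not measured in these data.

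**Figure D3:**
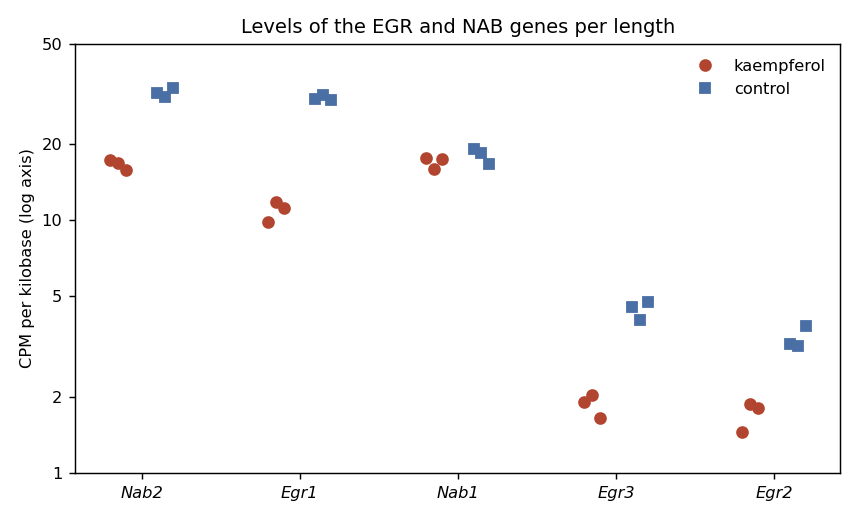
CPM per kilobase of gene length (log axis) of the 5 genes, kaempferol circles left of control squares, 1 point per library. With kaempferol Egr1, at 9.84 to 11.8, is below both NAB genes, while in controls Nab2 and Egr1 overlap, at 30.0 to 33.5.

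**Figure D4:**
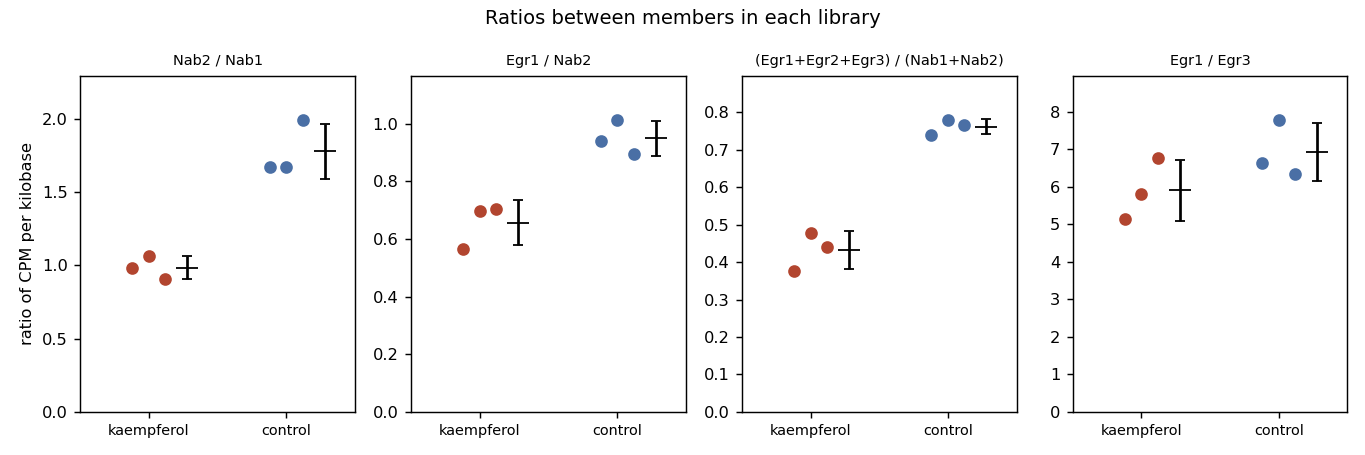
Ratios of CPM per kilobase within each library (linear axes from 0), kaempferol left of control, with mean ± SD (n = 3). The groups are apart for Nab2 to Nab1, Egr1 to Nab2 and the EGR sum to the NAB sum, and they overlap for Egr1 to Egr3.

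Egr4, the family member that lacks the NAB-binding domain, had 0 counts in all 6 libraries, which allows up to 0.159 to 0.181 CPM for 3 counts in a library. Wt1, a zinc finger factor with a related binding sequence, had 2 counts in control replicate 1 and 0 in the other libraries. Neither was tested. The table marks Egr1, Egr2 and Egr3 as C2H2 zinc finger factors, and of the 436 tested genes with that mark 21 were called higher and 35 lower, 8.03% lower against 12.6% of all tested genes. Ordered from the most negative fold change, Egr1, Egr3 and Egr2 were at places 1, 3 and 6 of this class, a class picked after its values were seen.

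No run of 50 bases in the annotated transcripts of the EGR genes occurred in transcripts of another gene. For Nab1 2.34% of such runs did on the same strand, most of them in Cog7. Nab2 is less certain, because 1050 of its 2941 exonic bases, 35.7%, also belong to the antisense gene Gm16229, 151 to Nemp1 and 40 to Stat6 on the opposite strand, and whether reads were counted by strand is not given in the sources used here. Gm16229 was listed at 0 to 2 counts per library. Stat6, a cytokine signal transducer, had 15, 18 and 21 counts with kaempferol against 23, 13 and 13 in controls, far fewer than the 833 to 1635 counts of Nab2.

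Nemp1, a nuclear envelope gene that starts inside Nab2 on the other strand and overlaps it by 1668 bases, was also lower, with 634, 579 and 724 counts in kaempferol libraries against 822, 825 and 766 in control libraries (log2 fold change -0.35, standard error 0.0659, adjusted p = 0.000819 from edgeR). The fitted change of Nab2 was larger than that of this neighbour. The neighbours of the EGR genes within 20 kb did not pass. Reep2 near Egr1, Ado near Egr2 and Bin3 near Egr3 had log2 fold changes of -0.10, -0.02 and -0.11 (adjusted p = 0.814, 0.856 and 0.328). The other listed neighbours, Gm33524 and Pebp4 near Egr3, Gm5976 and Gm23460 near Nab1 and Gm16230 near Nab2, had at most 12 counts per library and were not tested.

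The genes whose profile over the 6 libraries was closest to each of the 5 were picked among 10266 other protein-coding genes with at least 5 CPM, by the root mean square difference of log2 CPM after removing each gene's mean. Closest to Egr1 were Peg10 (0.118), Wnt10a (0.128) and Il33 (0.156), and closest to Egr3 were Tnfrsf25 (0.0972), Cdhr1 (0.121) and Il33 (0.146). Closest to Egr2 were Cdhr1 (0.117), H1f0 (0.124) and Traf5 (0.135). H1f0, a linker histone gene, was also closest to Nab2 (0.0425), followed by Ptn (0.0641) and Apln (0.0670). Nab1 was closest to Mtpn (0.0220), Trub1 (0.0237) and Zfp719 (0.0240). Among the 5 genes themselves, Egr2 and Nab2 were nearest (0.151) and Egr1 and Nab1 farthest (0.706). All these distances include the kaempferol vs. control difference, which was known when the 5 genes were chosen. Nothing is therefore read from them. A small value means a like pattern over the 6 libraries, to which the group difference can contribute most. The deviations of single libraries need not be alike. Among kaempferol libraries Egr1 was lowest in replicate 1, but Peg10, its closest gene, was lowest in replicate 2 (79.1, 76.4 and 88.6 CPM).

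Called changes of the genes that lead to EGR transcription went both ways, most of them lower. Of 27 genes from RAS and RAF kinases through ERK to SRF, its cofactors and CREB, 10 were called lower, 2 higher and 15 were not called, that is 44.4% called against 24.0% of all tested genes, and the median log2 fold change was -0.08 against -0.00047 over all tested genes. Without control replicate 2 the count was 6 lower and 1 higher. Srf, the factor that binds CArG boxes, had 79.6, 73.0 and 66.4 CPM with kaempferol against 89.9, 90.3 and 86.2 CPM in controls (log2 fold change -0.28, standard error 0.0604, adjusted p = 0.00219 from edgeR). Its partner Elk1 was higher, at 37.7 ± 1.38 CPM with kaempferol against 32.4 ± 1.51 CPM in controls (SD, n = 3 each; log2 fold change 0.22, edgeR adjusted p = 0.0304). The ERK kinase gene Mapk3 had a log2 fold change of 0.06 (edgeR adjusted p = 0.471). The coactivators Ep300 and Crebbp fell by 0.33 and 0.28 on the log2 scale, and the ERK- or stress-activated kinases Rps6ka4 and Rps6ka3 by 0.30 and 0.28 (edgeR adjusted p = 0.000311, 0.0116, 0.000261 and 0.000867). The mRNA of a kinase does not show its activity.

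Other immediate-early genes did not share one direction. Of 41, 11 were called higher, 8 lower and 22 were not called (46.3% called, against 24.0% of all tested genes), and the median log2 fold change was 0.05. Ptgs2, the prostaglandin synthase COX-2, had 73.7, 67.3 and 81.1 CPM with kaempferol against 39.3, 38.9 and 38.2 CPM in controls (log2 fold change 0.93, standard error 0.0688, edgeR adjusted p = 1.75e-08). Sgk1, a kinase gene, and Klf4, a zinc finger factor gene, rose by 0.69 and 0.68 on the log2 scale (edgeR adjusted p = 2.37e-08 and 1.58e-05). Genes that fell included Errfi1, a brake on the EGF receptor, with 93.4, 92.3 and 92.0 CPM in kaempferol libraries against 148, 151 and 147 CPM in control libraries (log2 fold change -0.68, standard error 0.0441, edgeR adjusted p = 2.69e-09). Arc, a neuronal gene driven by EGR factors, had 4.08, 2.64 and 2.60 CPM with kaempferol against 5.26, 6.23 and 4.88 CPM in controls (log2 fold change -0.82, standard error 0.200, edgeR adjusted p = 0.00634).

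The AP-1 genes, some of which ERK and SRF also switch on, did not share one direction either. Junb had 216 ± 3.74 CPM with kaempferol against 252 ± 8.07 CPM in controls (SD, n = 3 each; log2 fold change -0.22, edgeR adjusted p = 0.00129). Fos was low, at 2.00 ± 0.155 CPM with kaempferol against 2.93 ± 0.269 CPM in controls (log2 fold change -0.55, edgeR adjusted p = 0.0878), and Fosb at 1.81 ± 0.118 CPM with kaempferol against 1.97 ± 0.266 CPM in controls (log2 fold change -0.12, edgeR adjusted p = 0.789). Fosl2 rose, at 358 ± 5.83 CPM with kaempferol against 243 ± 7.12 CPM in controls (SD, n = 3 each; log2 fold change 0.56, edgeR adjusted p = 4.00e-08). Fosl1, Jun and Jund had log2 fold changes of 0.12, 0.06 and 0.07 (edgeR adjusted p = 0.162, 0.448 and 0.456). None of the 41 genes had a fold change as negative as Egr1, Egr2, Egr3 or Nab2, the lowest being that of Arc. Those 4 genes were chosen with this comparison known, so nothing is read from this order.

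Feedback genes of ERK were split. Of 13, 4 were called lower, 1 higher and 8 were not called (30.8% lower, against 12.6% of all tested genes), and the median log2 fold change was -0.21, and without kaempferol replicate 2 the count was 2 lower and 1 higher. The ERK phosphatase genes Dusp5 and Dusp4 went opposite ways, with 21.2 against 29.1 and 89.1 against 55.2 CPM in kaempferol against control libraries (log2 fold changes -0.46 and 0.69, edgeR adjusted p = 0.000481 and 4.91e-07). The inhibitor genes Spred3, Spred1 and Spred2 fell by 0.34, 0.24 and 0.24 on the log2 scale (edgeR adjusted p = 0.0409, 0.00271 and 0.00877). Dusp6, often used as a readout of ERK activity, was at 31.1 ± 1.25 CPM with kaempferol against 32.4 ± 1.89 CPM in controls (SD, n = 3 each; edgeR adjusted p = 0.640).

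Genes that EGR factors are reported to regulate in other cells changed in both directions. Of 37 listed, 29 were tested, and of these 11 were called lower, 6 higher and 12 were not called (58.6% called, against 24.0% of all tested genes), and the median log2 fold change was -0.06. The collagen I genes, which EGR1 drives in tendon, fell. Col1a1 had 663, 687 and 655 CPM with kaempferol against 1137, 1088 and 1024 CPM in controls (log2 fold change -0.70, standard error 0.0456, edgeR adjusted p = 3.32e-09), and Col1a2 fell by 0.48 on the log2 scale (edgeR adjusted p = 6.35e-08). So did Scx, the tendon factor scleraxis, with 83.1, 75.0 and 73.8 CPM in kaempferol libraries against 113, 111 and 115 CPM in control libraries (log2 fold change -0.54, edgeR adjusted p = 5.51e-07).

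Prx, the gene of the myelin protein periaxin, fell by 0.58 on the log2 scale (edgeR adjusted p = 0.00139). The cell death gene Bcl2l11 rose, at 20.4 CPM with kaempferol against 13.2 CPM in controls (log2 fold change 0.63, edgeR adjusted p = 0.000777). The growth factor genes Pdgfa and Tgfb1, classical EGR1 targets, had log2 fold changes of -0.01 and 0.0040 (edgeR adjusted p = 0.941 and 0.965). Of the 8 untested genes, Igf2 and Gjb1 had 0 counts in every library, and the myelin gene Mag had at most 2 counts per library.

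Part of the NuRD complex, the chromatin remodeller that NAB2 recruits through CHD4, was lower. Of its 13 genes 6 were called lower, 0 higher and 7 were not called (46.2% lower, against 12.6% of all tested genes), and the median log2 fold change was -0.13. Chd3, a remodeller ATPase, had 330, 349 and 336 CPM with kaempferol against 498, 480 and 515 CPM in controls (log2 fold change -0.56, standard error 0.0449, edgeR adjusted p = 6.19e-08). Chd4, the ATPase that NAB2 binds, had 442, 441 and 448 CPM with kaempferol against 521, 525 and 528 CPM in controls (log2 fold change -0.24, standard error 0.0407, edgeR adjusted p = 0.000274). Both groups of values were tight and did not overlap. Rbbp7, Gatad2b and Mbd2 fell by 0.28, 0.25 and 0.22 on the log2 scale (edgeR adjusted p = 0.000167, 0.000881 and 0.00500).

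**Figure D5:**
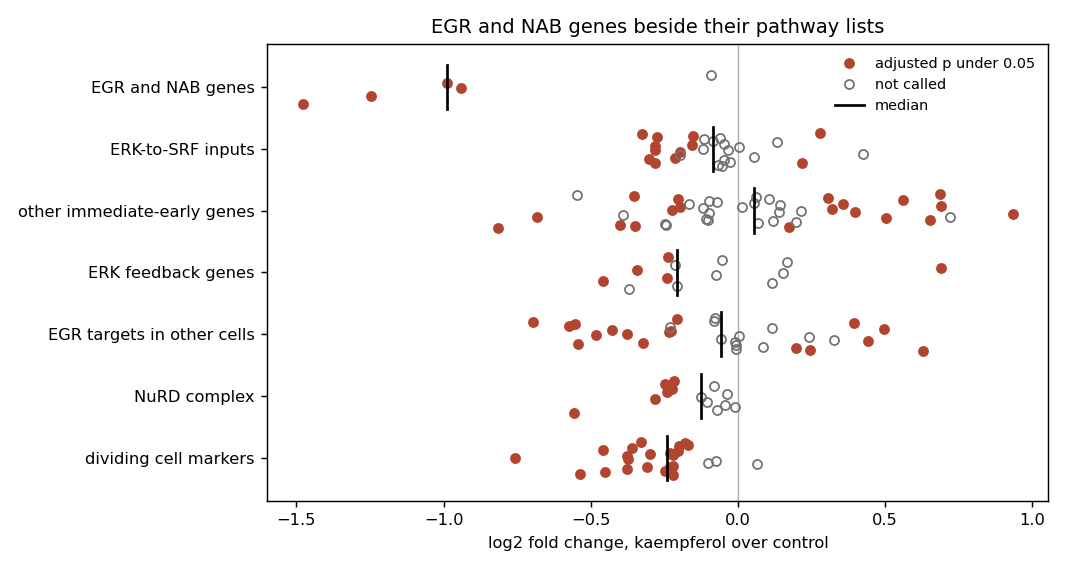
Fitted log2 fold change (kaempferol over control) of each tested gene of the EGR and NAB set and of 6 gene lists (inputs from ERK to SRF, other immediate-early genes, ERK feedback, EGR targets, NuRD and dividing cell markers), filled where the edgeR adjusted p is under 0.05, with a bar at the median; the vertical scatter within a row has no meaning. The Egr and Nab2 points lie at -0.94 to -1.48, left of every point of these 6 lists, but these genes were chosen with this comparison known. Myotube and myoblast markers are not drawn, and among them Myh4 was at -1.50.

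Most markers of dividing cells were lower with kaempferol, as the EGR genes were. Of these markers 21 of 24 were called lower and 0 higher (87.5% lower, against 12.6% of all tested genes), their median log2 fold change was -0.24, and their summed levels were 4518 to 4661 CPM in kaempferol libraries against 5612 to 5814 CPM in control libraries. Mki67, the marker of dividing cells, had 370, 378 and 432 CPM with kaempferol against 667, 703 and 627 CPM in controls (log2 fold change -0.76, standard error 0.0578, edgeR adjusted p = 2.79e-08), and Kif23, Plk1, Ccna2 and Cenpe fell by 0.54, 0.46, 0.45 and 0.38 on the log2 scale (edgeR adjusted p = 9.27e-08, 6.73e-07, 6.18e-07 and 3.93e-05). The part of these cells in the lower EGR and Nab2 levels was not tested. In bulk libraries fewer cells of a type and less RNA per cell cannot be told apart.

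Among 21 tested myotube markers 3 were called higher, 3 lower and 15 were not called, and the 28.6% called was near the 24.0% of all tested genes. Their summed levels were 1349 to 1416 CPM with kaempferol against 1339 to 1485 CPM in controls. Each of the tested markers was counted in every library, among them Myh3, Acta1, Des and Myog. Ckm was low, at 3.84 CPM with kaempferol against 4.66 CPM in controls. Myh2 and Myh7 had means of 0.629 and 0.794 CPM with kaempferol against 0.593 and 0.862 CPM in controls. Tnnc2 had 0 counts in all, and Myh8 and Actn2 had at most 12 counts. The summed level of the dividing cell markers was above that of the myotube markers in every library. The cultures called myotubes thus also held RNA of dividing cells, and the share of such cells was not measured. Myog, the factor of terminal differentiation, had 35.9, 44.1 and 41.5 CPM with kaempferol against 31.7, 32.2 and 35.5 CPM in controls (log2 fold change 0.29, edgeR adjusted p = 0.0143). Acta1 had log2 fold change 0.26, Des -0.15, Mymx -0.52 and Myh4 -1.50, the last at under 2 CPM (edgeR adjusted p = 0.00703, 0.0224, 0.0216 and 0.00665). Without control replicate 1 the count was 1 higher and 1 lower, and without kaempferol replicate 1 it was 2 higher and 1 lower. Of 17 tested markers of undifferentiated myoblasts and reserve cells, 4 were called lower and 2 higher (23.5% lower and 11.8% higher, against 12.6% and 11.3% of all tested genes), with summed levels of 1508 to 1569 CPM with kaempferol against 1583 to 1597 CPM in controls. Sdc4, Cdh15, Myod1 and Cd34 fell by 0.52, 0.31, 0.22 and 0.14 on the log2 scale and Megf10 rose by 0.33 (edgeR adjusted p = 3.60e-07, 0.000136, 0.0160, 0.0292 and 0.000111). Without control replicate 1, as without kaempferol replicate 1, the count was 2 lower and 1 higher.

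Among all tested genes 1647 were called higher and 1840 lower, and scaling by the upper quartile gave 1966 higher and 1424 lower. Library totals were 16575790 to 18625272 counts, and replicates of a group differed by more than counting error, with a chi-square of 3.28 to 5.25 per gene.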

How the data were processed

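RNA of 6 libraries was analysed from 1 table of raw counts per gene that the authors deposited. Per the labels, poly(A) RNA was copied from random hexamers, and the submitters' processing notes list featureCounts (1.5.0-p3), the aligner HISAT2 (2.0.5), build mm10 and, among other tools, StringTie (1.3.3b) and DESeq2 (1.20.0). The table also gives a gene length as deposited, used for levels per kilobase. Whether counting used strand is not given in the sources used here.

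edgeR 4.0.16 was run in R 4.3.3 on these counts. The filterByExpr step (minimum count 10, minimum total 15) chose the genes, TMM factors (0.985 to 1.01) scaled them, and kaempferol was compared with control by the quasi-likelihood test and Benjamini-Hochberg adjustment over the 14558 tested genes. Standard errors are those the test statistic implies, and log2 CPM used a prior count of 2. The test was checked on simulated counts. Coordinates of the 5 genes are the same in GENCODE M21.

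The 5 genes and the 8 lists (197 genes, all found, 4 under an older name) were chosen with earlier results of these data known, the lists from general knowledge. Named are the 5 genes, Egr4, neighbours within 20 kb, up to 5 called genes per list with the largest change among those averaging 1 CPM or more without overlap of the groups, 13 genes fixed by name, and the 3 genes most like each of the 5. Wt1, Fosl1, Fosl2, Jun, Jund, Col1a2, Igf2, Gjb1, Mag, Myh2, Myh3, Myh7, Ckm, Tnnc2, Myh8 and Actn2 were named after their values were seen. Some genes that the rule names are not reported here. Alternatives were DESeq2 1.42.0, RLE or upper-quartile factors, other filters, a replicate block, a prior count of 0.5 and leaving out each library.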

Additional observations from a re-analysis of the deposited data

How the results depend on the processing

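The direction of all 5 log2 fold changes and their side of the threshold were the same under all 12 alternatives run for each gene. Leaving out 1 library at a time gave -1.54 to -1.41 for Egr1, -1.05 to -0.89 for Egr2, -1.31 to -1.16 for Egr3, -0.97 to -0.90 for Nab2 and -0.15 to -0.05 for Nab1. The other alternatives gave -1.48 to -1.45, -0.99 to -0.96, -1.25 to -1.22, -0.94 to -0.92 and -0.10 to -0.07 for the same genes.

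With 1 library left out, the genes called were 7 to 12 for the inputs from ERK to SRF, 3 to 4 for ERK feedback genes (5 with all libraries), 2 to 6 for myotube markers and 3 to 6 for myoblast markers. The counts of the other lists stayed within 1.5 times. The fits without 1 library rest on fewer samples. A replicate block called 2750 genes against 3487 without it. Libraries of the same number did not deviate together (correlations of deviations -0.06 to -0.02), so the number was not taken as a pairing, and no library correlated best with its own number. The precision of Egr2 is limited by its 86 to 215 counts per library.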
